A study of Mus musculus with 8 samples.

Results

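The Rab GTPases are the largest branch of the small GTPases that direct membrane traffic. Members were chosen by symbol alone, as Rab followed by a number with at most a letter and a further digit, so that Rab-interacting proteins and pseudogenes stayed out. The rule found 59 genes among the 55487 in the deposited tables, and 35 of the 59 passed the filter on low counts and were tested among 7362 genes. Platelets came from 8 male mice aged 13 weeks, 4 WT and 4 labelled Dnmt3a+/-, that is with 1 altered copy of the gene for a de novo DNA methyltransferase, and the mice were littermates. All 8 preparations were pelleted from platelet-rich plasma and depleted of cells carrying Ter119 or CD45, each mouse gave 1 library of polyadenylated RNA, and the sources used here do not say how the allele was made. The comparison asks how platelet RNA differs between the genotypes.

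A Rab protein is a switch. Bound to GTP it sits on 1 kind of membrane and recruits effectors, which are motors, tethers and fusion factors, and bound to GDP it is held in the cytosol by a GDP dissociation inhibitor. Guanine nucleotide exchange factors (GEFs) turn it on, GTPase-activating proteins (GAPs) turn it off, and a prenyl group added by Rab geranylgeranyl transferase anchors it. In platelets the family is best known for granules: Rab27b acts in the packing and release of dense granules, Rab32 and Rab38 in making lysosome-related organelles, and Rab4 in alpha granule release. Platelets have no nucleus, so their RNA is mostly what the megakaryocyte packaged.

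Total counts ran from 15185218 to 22160394 per library. Dnmt3a itself was at 21.2, 22.1, 19.8 and 18.2 counts per 1000000 (CPM, scaled by edgeR's TMM factors) in WT replicates 1 to 4, and at 9.96, 11.5, 24.2 and 19.5 in mice labelled Dnmt3a+/-. Replicates 3 and 4 of the latter were within or above the WT range, so that Dnmt3a RNA did not separate the labels, and whether the allele lowers RNA at all is not known here. The 12 platelet markers summed to 4.18% to 5.19% of counts in the 8 libraries. The 9 erythroid markers summed to 2.03% in WT replicate 1 and to 0.203% to 0.486% elsewhere, and the 12 hepatocyte markers to 0.00141% to 0.135% in WT mice and 6.3e-05% to 0.0123% in mice labelled Dnmt3a+/-. The 7 monocyte and macrophage markers made up 0.341% to 0.648%, highest in WT replicate 1, while the 7 neutrophil markers summed to at most 0.000169% and the 6 T and NK cell markers to at most 1.81e-05% of counts in any library. In these last 2 lists Elane and Camp, and Cd3e and Cd3g, were at 0 counts in every library and the others were detected in at least 1. The share of mitochondrially encoded genes was 24.8% in WT replicate 3, against 16.7% to 19% elsewhere.

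Promoter sequence was read from RefSeq (GRCm38.p6) as windows from 250 bases before to 50 bases after each start, and 60 windows matched 48 of the 59 members. No entry was matched for Rab18, Rab26, Rab27b, Rab2a, Rab30, Rab36, Rab37, Rab38, Rab44, Rab4a and Rab7b. Below are the 250 bases before the start of Rab11a, the member with the most RNA, and of Rab9, the member that stood apart between the groups. The Rab11a stretch lies on the minus strand at chr9:64737757-64738006, and capitals mark each match to CCGGAA, the core that ETS factors bind, or to its reverse TTCCGG. The Rab9 stretch lies on the minus strand at chrX:166479868-166480117, and capitals mark each CG dinucleotide (CpG), the site of DNA methylation.
Rab11a: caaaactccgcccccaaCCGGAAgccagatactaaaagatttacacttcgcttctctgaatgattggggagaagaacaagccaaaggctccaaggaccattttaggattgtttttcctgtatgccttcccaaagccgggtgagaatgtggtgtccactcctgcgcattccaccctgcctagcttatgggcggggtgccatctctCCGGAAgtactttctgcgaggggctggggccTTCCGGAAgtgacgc
Rab9: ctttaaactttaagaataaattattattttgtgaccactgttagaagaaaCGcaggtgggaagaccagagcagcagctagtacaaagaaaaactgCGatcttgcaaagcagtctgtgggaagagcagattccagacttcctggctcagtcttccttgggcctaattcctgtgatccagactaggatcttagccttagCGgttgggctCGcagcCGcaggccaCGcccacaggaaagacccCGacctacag

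The Rab11a stretch held 4 such matches with overlapping ones counted, and 67 of the 32851 windows of all genes, or 0.204%, held at least 4. The ETS core, searched on both strands, was in 15 of the 60 Rab windows (25%) and in 14.9% of all windows. The core of GATA factors, AGATAA on both strands, was in 2 Rab windows (3.33%) and in 11.2% of all. The only background for these shares was all windows, which were not matched for base composition or limited to tested genes. The ETS core holds a CG, and the Rab members had more CpGs at the median than all genes, as given next. Some members also gave several of the 60 windows. Whether the motif shares, or the matches in the Rab11a stretch, differ beyond base composition was not tested. These matches describe letters in the windows, and binding there was not measured.

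CpG content was compared by gene. Taking each gene's window with the most CpGs, the 27 of the 35 tested members that were matched had a median of 26 CpGs in 300 bases (range 9 to 43), and the 21 matched members under the filter had a median of 17 (range 5 to 45), against 23 for the 5695 tested genes with a window and 8 for all 27025 genes with one. At least 10 CpGs were in 26 of the 27 tested members and in 85.1% of tested genes, and in 15 of the 21 other members and 45.8% of all genes. The tested members were thus close to other genes present in platelet RNA. Of the 27 tested members with a window, Rab9 had the fewest CpGs, with 9, and Rab32 with 10 and Rab11b with 12 came next.

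Platelet Rab RNA was dominated by few members. On the scale of deposited TPM (transcripts per 1000000, corrected for length), 6 members averaged 100 TPM or more over the 8 libraries and made up 76.5% of all Rab TPM: Rab11a, Rab6a, Rab27b, Rab7, Rab11b and Rab5c. A further 16 lay between 10 and 100 TPM (21.2% of Rab TPM), 11 between 1 and 10 TPM (2.17%), and 26 under 1 TPM (0.196%). Across all genes Rab11a ranked 117, and 9 Rab members were among the top 1000.

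**Figure D1:**
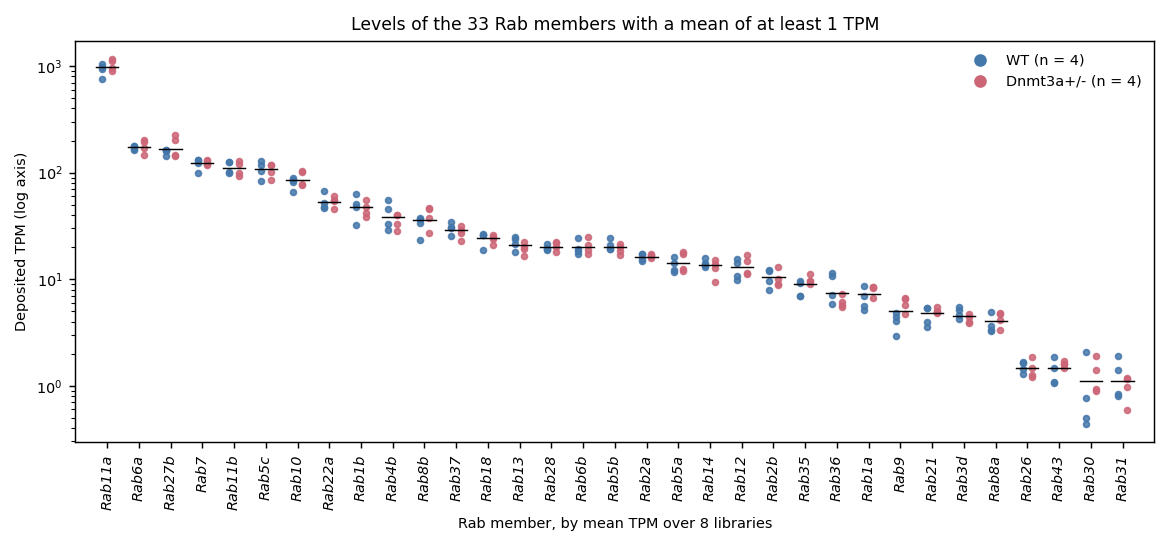
Deposited TPM (vertical, log axis) of the 33 Rab members averaging at least 1 TPM, ordered by mean level, with 1 point per library coloured by genotype label and a black bar at the mean of all 8. Rab11a stands above every other member in every library, and the points of the 2 groups are intermixed along the order.

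Traffic through recycling endosomes, which return membrane proteins to the surface, held the largest share of Rab TPM (53%). Rab11a, its central member, was at 758, 990.2, 946 and 1048 TPM in WT replicates 1 to 4 and at 899.95, 1166, 951 and 1125 TPM in mice labelled Dnmt3a+/-. WT replicate 1 was the lowest of all and the groups overlapped. Its log2 fold change (the libraries labelled Dnmt3a+/- minus WT, here and throughout) was 0.11 (SE 0.16), with an adjusted p of 0.998 in edgeR's quasi-likelihood test. Rab11a alone gave 45.1% of all Rab TPM. This share and the 53% above rest on the transcript length used for Rab11a, as described below. Its paralog Rab11b was at 127, 125, 101 and 99.6 TPM in WT mice and 121, 98.8, 129 and 92.8 TPM in mice labelled Dnmt3a+/-, again overlapping. The ratio of Rab11a to Rab11b, in CPM, was 1.40, 1.96, 2.46 and 2.20 in WT mice and 1.78, 2.77, 1.86 and 2.39 in the other group, so it varied about as much within a group as between them. CPM is not corrected for length, and the ratio of mean deposited TPM was 8.83.

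Rab4b, of rapid recycling from early endosomes, was at 55.9, 45.2, 29 and 33 TPM in WT mice and 40.2, 33.2, 40.04 and 28.3 TPM in mice labelled Dnmt3a+/-, and the groups overlapped. Its paralog Rab4a, the form usually named in platelet work, was at 0 counts in 6 of the 8 libraries and at 1 and 2 counts in the others. Nearly all Rab4 RNA in these platelets was thus Rab4b RNA. The highest Rab4b value was that of WT replicate 1, the library with the most erythroid and monocyte marker RNA, whose part in it was not tested. Rab35, also of recycling, was lower, at 8.16 ± 1.39 TPM in WT mice and 9.85 ± 0.863 in mice labelled Dnmt3a+/- (SD, n = 4 each).

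The size of the lead of Rab11a depended on the length used. A gene's TPM divides its reads by the length of the transcripts to which they were assigned, and the ratio of count to TPM gives that length back. It was scaled on 90 genes with 1 annotated transcript of more than 1000 bases and a mean count of at least 500. Their median was set to the annotated length, so only their spread is informative. The lower and upper quartiles of the implied over the annotated length were 0.972 and 1.03. Shorter transcripts were not part of this check. For Rab11a the implied length was 596 to 703 bases by library, lowest in WT replicate 1 and highest in replicate 2 labelled Dnmt3a+/-. Its longest coding transcript in GENCODE has 2336 bases and its shortest of 9 transcripts 397. Rab6a had an implied length of 2785 to 2835 bases against 3214 annotated. In CPM per 1000 bases of the longest coding transcript, a scale chosen after the values were seen, Rab11a was at 234 and Rab6a at 129, a ratio of 1.81 where deposited TPM gives 5.63. Rab11a kept its lead on both scales. All shares of Rab TPM given here hold on the deposited scale only, where the short implied length raises the part of Rab11a. Rab27b passed from place 3 in TPM to place 6 (62.5), behind Rab5c (87.3), Rab7 (83.3) and Rab10 (73.9), and Rab18 from 13 to 23.

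**Figure D2:**
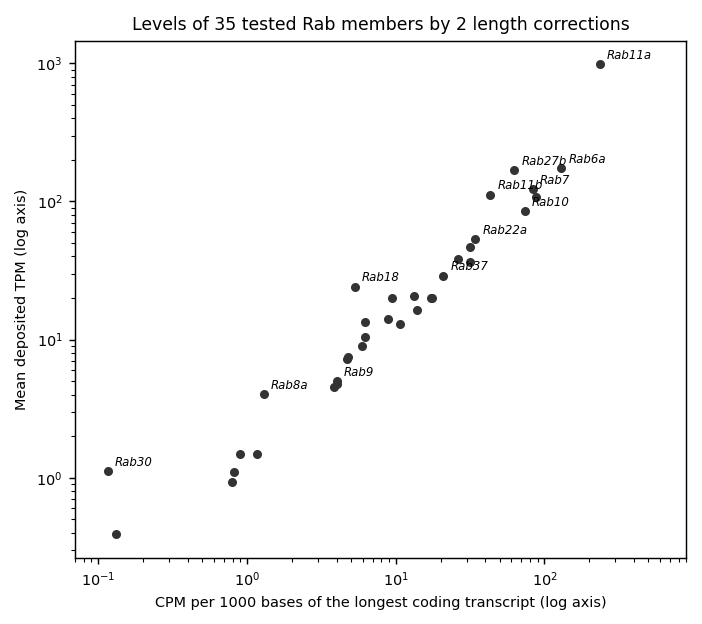
Mean deposited TPM of the 35 tested members (vertical, log axis) against mean CPM per 1000 bases of the longest coding transcript (horizontal, log axis), 1 point per member. Rab11a leads on both axes and lies above the run of other members, as do Rab18, Rab8a and Rab30 at lower levels.

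Rab27b was the Rab27 form in these platelets. It was at 142, 160.5, 162 and 164 TPM in WT mice and at 145, 225, 145 and 203 TPM in mice labelled Dnmt3a+/-. Replicates 2 and 4 of the latter were above every WT library and replicates 1 and 3 stood at the low end of the WT range. The log2 fold change was 0.13 (SE 0.14, edgeR adjusted p = 0.998), and the groups overlapped. Rab27a, the form of melanocytes and cytotoxic lymphocytes, had 2 to 10 counts per library against 5827 to 11243 for Rab27b.

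Of the other members tied to secretory granules, Rab37, known from mast cell granules, was at 66.6, 53, 55.1 and 55.2 CPM in WT mice and at 60.6, 41.7, 53.7 and 48.8 CPM in mice labelled Dnmt3a+/-. Rab3d, of regulated exocytosis, was at 17.3, 15.7, 16.4 and 15.1 CPM in WT mice and 16.2, 12.7, 14.5 and 12.6 CPM in the others. Both gave negative log2 fold changes, of -0.17 (SE 0.13) and -0.20 (SE 0.13), with overlapping groups and edgeR adjusted p-values of 0.998. Rab3b had 0 to 2 counts per library. Rab26 had the lowest fold change of the family, -0.36 (SE 0.28), from 20 to 30 counts per library, and its exons overlap those of Traf7 on the same strand, whose mean count was 1490.

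The pair that makes lysosome-related organelles was nearly silent. Rab32 had 21 to 36 counts per library, or 0.913 ± 0.269 TPM in WT mice and 0.953 ± 0.312 in mice labelled Dnmt3a+/- (SD, n = 4 each), and Rab38 had 0 to 4 counts. Their log2 fold change could be tested for Rab32 only and was 0.03 (SE 0.32), an error too wide to place the groups together or apart. Hps1 and Hps4, the subunits of the exchange factor for both, averaged 1.53 and 0.649 TPM.

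The Golgi and endoplasmic reticulum members held 13.9% of Rab TPM, most of it Rab6a. Rab6a, which steers transport within and out of the Golgi, was at 167, 179, 161.5 and 178 TPM in WT mice and 172, 201, 148 and 195 TPM in mice labelled Dnmt3a+/-, with a log2 fold change of 0.03 (SE 0.10). The groups overlapped, and the highest and lowest libraries were both labelled Dnmt3a+/-. Its exons overlap those of Mrpl48 on the opposite strand, which had a mean count of 563 against 7100. Rab6b, the form usually tied to neurons, was also present, at 84.8, 73.7, 86.3 and 105 CPM in WT mice and 78.3, 89.5, 80.6 and 103 CPM in the other group, and Rab6a exceeded it by 3.97 to 5.4 times in CPM over the 8 libraries. For Rab1, which carries cargo from the endoplasmic reticulum to the Golgi, the b form was the more abundant: Rab1b was at 83.4, 62.7, 53.3 and 55.4 CPM in WT mice and 72.7, 47.7, 62.4 and 46.2 CPM in the other group. Rab1a, described here after its values were seen, was at 10.4, 12.5, 11.5 and 14 CPM in WT mice and 13.1, 15.4, 14 and 16.1 CPM in mice labelled Dnmt3a+/-. Its log2 fold change of 0.28 (SE 0.14) had an edgeR adjusted p of 0.987, and the groups overlapped.

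Among early endosome members the c form led. Rab5c, 1 of the 3 Rab5 proteins that drive early endosome fusion, was at 129.9, 119, 84.2 and 103 TPM in WT mice and 117, 100.4, 117 and 85.5 TPM in mice labelled Dnmt3a+/- (log2 fold change -0.08, SE 0.14). In CPM it was highest in WT replicate 1 at 214 and lowest in replicate 4 labelled Dnmt3a+/- at 131. Rab5b and Rab5a averaged 20.1 and 14.2 TPM, and the ratio of Rab5a to Rab5c in CPM ran from 0.113 to 0.179 in WT mice and from 0.128 to 0.253 in the other group. Rab22a, of endosomal sorting, was at 47.7, 67, 46.3 and 51.7 TPM in WT mice and 45.7, 54.6, 60.3 and 55 TPM in mice labelled Dnmt3a+/-, with overlapping groups. Rab31, a close relative of Rab22a, was scarce, at 2.48, 3.41, 3.58 and 2.48 CPM in WT mice and 2.57, 2.91, 1.76 and 3.39 CPM in the other group. Rab14, of the Golgi and endosomes, was at 28.1, 31.8, 37.3 and 30.2 CPM in WT mice and 26.2, 33.4, 29.97 and 33.5 CPM in the other group. Neither separated the labels.

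Of the members that carry vesicles from the Golgi to the surface, Rab10 led. It was at 207, 246, 285 and 257 CPM in WT mice and 241, 308, 238 and 295 CPM in mice labelled Dnmt3a+/- (log2 fold change 0.12, SE 0.12). That fold change was 0.04 without WT replicate 1, 0.04 without replicate 2 labelled Dnmt3a+/- and 0.19 without WT replicate 3. The related Rab8b was at 99.9, 144, 162 and 151 CPM in WT mice and 118, 189.8, 154 and 182 CPM in the other group. Rab10 and Rab8b were both lowest in WT replicate 1 and highest in replicate 2 labelled Dnmt3a+/-. Rab8a, the form better known from epithelia, was at 5.41, 5.47, 6.84 and 5.48 CPM in WT mice and 7.72, 5.26, 6.37 and 4.73 CPM in the other group, so Rab8b exceeded it by 15.2 to 38.6 times in CPM.

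Of the 7 late endosome and lysosome members 4 were tested, with 2 positive and 2 negative fold changes. Rab7 led at a mean of 123 TPM, with Rab36 at 7.47, Rab9 at 4.99 and Rab7b at 0.391 TPM. Rab7, which governs maturation of late endosomes and their fusion with lysosomes, was at 191, 176, 174 and 185 CPM in WT mice and 171, 195, 177 and 170.04 CPM in mice labelled Dnmt3a+/-. These values overlap closely, with a log2 fold change of -0.02 (SE 0.09).

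Rab9 was the member with the clearest difference between the groups, and it did not pass adjustment. Rab9 acts in the return of mannose 6-phosphate receptors from late endosomes to the trans-Golgi network. It lies on chromosome X from 166457253 to 166479867 (GRCm38, minus strand), and its counts were 71, 96, 64 and 79 in WT mice and 106, 123, 92 and 168 in mice labelled Dnmt3a+/-. In CPM it was at 4.52, 5.20, 4.02 and 5.15 in WT mice and 6.99, 7.62, 5.58 and 7.29 in the other group. Every library labelled Dnmt3a+/- was above every WT library. In deposited TPM the groups overlapped, at 4.07 ± 0.807 in WT mice and 5.92 ± 0.867 in the other group (SD, n = 4 each). The log2 fold change was 0.54 (SE 0.16), with an unadjusted p of 0.0069 and an adjusted p of 0.647 by edgeR, and 4 of 4 libraries showed the direction. In the 18 alternative settings the fold change stayed between 0.45 and 0.63 and the edgeR, DESeq2 or limma adjusted p between 0.381 and 1.

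Across the 35 tested members no gene passed an adjusted p of 0.05 in edgeR, nor did any of the 7362 genes (0%). At an unadjusted p under 0.05 there was 1 member higher in mice labelled Dnmt3a+/-, Rab9, where 1.73% of all genes were, and 0 lower, where 3.19% of all genes were. By DESeq2, which took in more genes of low count, 15 of 18438 genes passed the adjusted threshold. None of the 15 was among the 55 Rab members in that fit. Ranges without overlap were found for 1 member in the higher direction, again Rab9, against 1.37% of all genes, and for 0 in the lower direction, against 1.17%. These shares are small, and 1 member of 35 lies near them.

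The members' fold changes were small. Their median was 0.03 (19 positive, 16 negative), against -0.005 over all genes. The sign of the median rested on single libraries: it was -0.03 without WT replicate 2 (14 positive, 21 negative) and -0.03 without replicate 2 labelled Dnmt3a+/- (12 positive and 24 negative of the 36 members tested there). Of the 35 members, 33 (94.3%) were within 0.3 of 0, where 77.1% of all genes were. The median SE was 0.143 for the members and 0.222 over all genes, so the members were also measured more precisely than most genes. Other members with fold changes away from 0, chosen after their values were seen, were Rab36 (-0.27, SE 0.13), Rab13 (-0.24, SE 0.13) and Rab35 (0.23, SE 0.12). Each of these 3 overlapped between the groups, and edgeR gave adjusted p-values of 0.987, 0.998 and 0.998. Rab36 acts on late endosomes and the Golgi, and Rab13 at epithelial cell junctions.

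**Figure D3:**
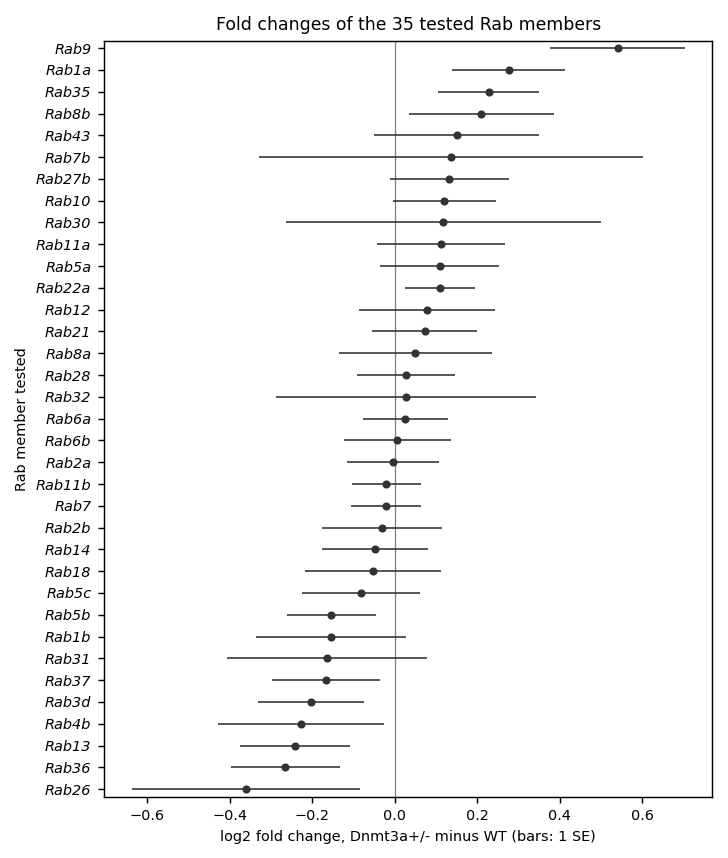
Log2 fold change of each of the 35 tested members (horizontal, libraries labelled Dnmt3a+/- minus WT) with bars of 1 SE from edgeR. Rab9, at 0.54, is the farthest from 0, and the remaining members run from -0.36 to 0.28.

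Summed over all members, Rab TPM was 1964, 2260.0, 2003 and 2244 in WT mice and 2054, 2460.0, 2127 and 2362 in mice labelled Dnmt3a+/-, or 2118 ± 156 and 2251 ± 191.5 (SD, n = 4 each). The groups overlapped, and without Rab11a the sums were 1183 ± 89.5 and 1215 ± 62.8. In bulk samples, fewer cells of a type and less RNA per cell cannot be told apart, and TPM gives shares of RNA and not amounts per platelet.

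**Figure D4:**
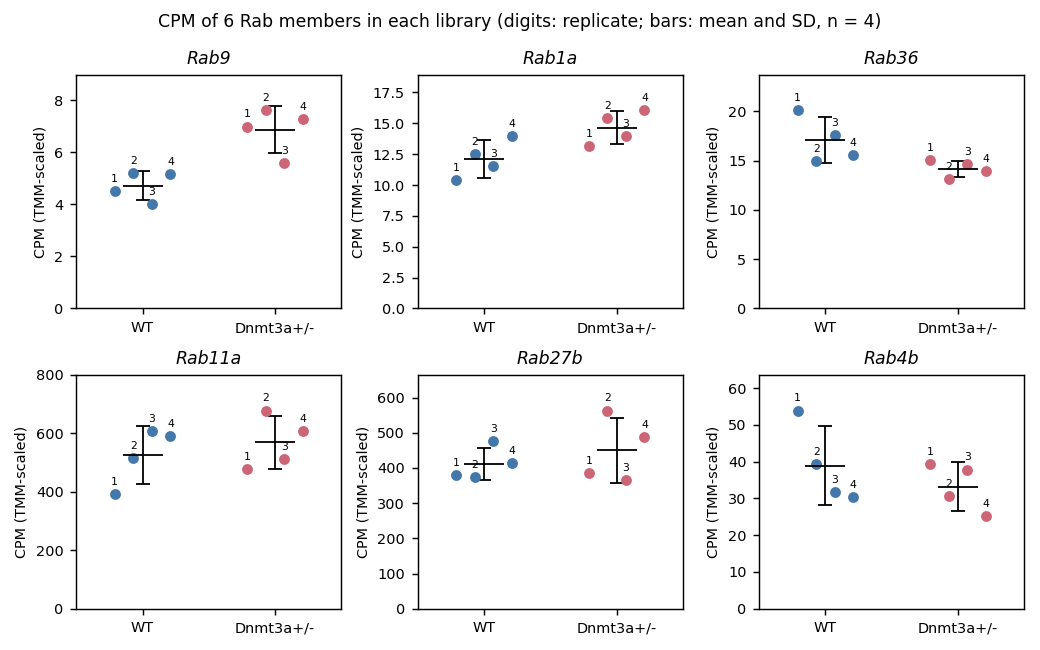
CPM (vertical axis from 0) of Rab9, Rab1a, Rab36, Rab11a, Rab27b and Rab4b in each of the 8 libraries by genotype label, with points numbered by replicate and bars for the mean and SD (n = 4). The groups overlap for every member shown in CPM except Rab9, whose libraries labelled Dnmt3a+/- lie between 5.58 and 7.62 CPM and WT between 4.02 and 5.20.

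The members' deviations from library to library followed their GC content in part. Across the 35 members, Spearman's rho between the GC content of the transcript and a library's deviation from the mean of all 8 was 0.44, 0.38, -0.25 and -0.024 in WT replicates 1 to 4. In the libraries labelled Dnmt3a+/- it was 0.34, -0.55, 0.42 and -0.55. These are descriptions across genes of the same libraries, and over 7354 genes rho had the same sign in each library and was between -0.38 and 0.36. In replicates 2 and 4 labelled Dnmt3a+/- the 17 members of lower GC content had median deviations of 0.211 and 0.166 in log2 CPM. Rab11a, Rab27b, Rab10 and Rab8b were above their means in both. Not every AT-rich member was: Rab2a, at 44.4% GC, was at 28.8 CPM in both against a mean of 29.5. WT replicates 1 and 2 and replicates 1 and 3 labelled Dnmt3a+/- leaned the other way, so this lean was found in both groups.

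The 17 members with the lower GC content (36.8% to 47.7%) had 13 positive and 4 negative log2 fold changes with a median of 0.11. The 18 with the higher GC content (48.1% to 58.9%) had 6 positive and 12 negative with a median of -0.12. All genes divided at the same GC content had medians of 0.04 (3399 genes) and -0.03 (3955 genes). After a GC correction within each library, chosen after the data were seen, the medians were 0.04 and -0.08 for the members, with 11 positive and 6 negative below and 6 and 12 above. The correction left Rab9 at 0.50 with an adjusted p of 0.592 in edgeR, and none of the members passed the threshold.

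**Figure D5:**
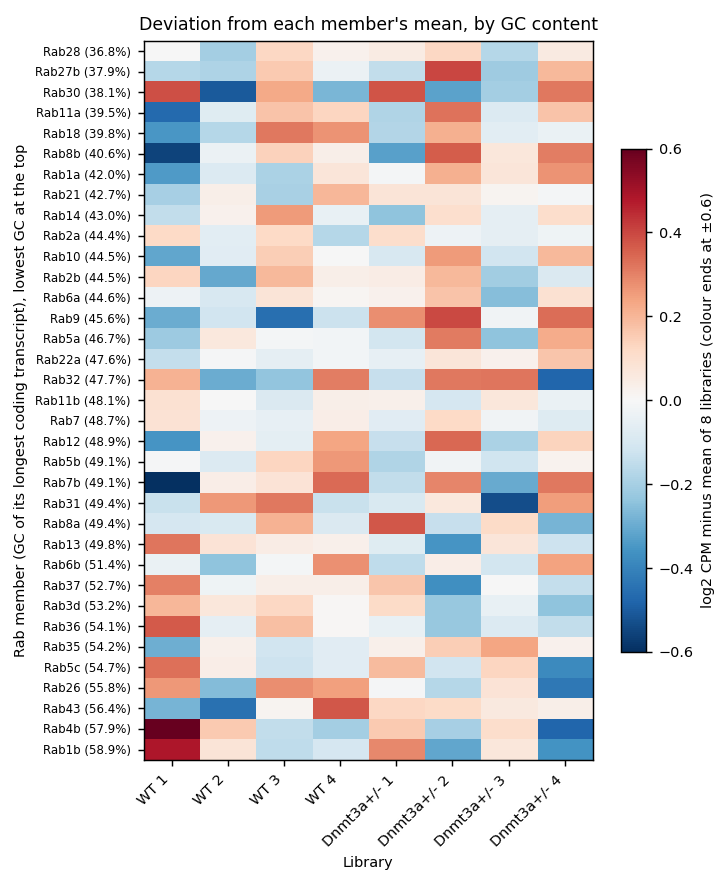
Deviation of each of the 35 tested members in each library from its mean over the 8 libraries (log2 CPM, colour), with members ordered by transcript GC content. The columns of replicates 2 and 4 labelled Dnmt3a+/- run, with exceptions, from positive at low GC to negative at high GC. WT replicates 1 and 2 and replicates 1 and 3 labelled Dnmt3a+/- lean the other way.

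Of the 24 members under the filter, 17 had at most 5 counts in every library, 19 were at 0 in at least 1 library and the highest count was 19. Rab3c, Rab19, Rab39b and Rab42 were at 0 counts in all 8 libraries, and a count of 0 allows up to 3 counts, or 0.13 to 0.198 CPM by library, counting error only.

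The regulators of the family were present at very unequal levels. Among exchange factors the TRAPP subunit gene Trappc2 led at 319 TPM. Of the 52 listed GEF genes found in the data 38 were tested, with 15 positive and 23 negative fold changes and a median of -0.04. None passed an adjusted p of 0.05 in edgeR, and 1 of the 38 was lower at an unadjusted p under 0.05, near the 3.19% of all genes. This was Sh3bp5, an exchange factor for Rab11, at 1.02, 2.00, 1.63 and 1.17 CPM in WT mice and 0.462, 0.495, 0.849 and 0.651 CPM in mice labelled Dnmt3a+/-. The groups were apart in CPM and overlapped in deposited TPM (0.52 to 2.44 in WT mice, 0.28 to 1.55 in the other group), with a log2 fold change of -1.24 (SE 0.34, edgeR adjusted p = 0.647), from 7 to 37 counts per library. Dennd1a, an exchange factor for Rab35 named after its values were seen, was the other tested GEF gene whose groups did not overlap in CPM (-0.64, SE 0.38), and it overlapped in TPM. Over all genes 1.17% were apart in this direction.

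Of 40 listed GAP genes 27 were tested, with 14 positive and 13 negative fold changes and a median of 0.03. Rabgap1l led at 95.2 TPM, and among the tested genes only Tbc1d8, named after its values were seen, had groups apart in CPM (0.52, SE 0.26), near the 1.37% of all genes. It overlapped in TPM. The listed effectors gave 16 positive and 16 negative fold changes among the 32 tested of 58 found in the data, and the groups overlapped for each. Sytl4, the Rab27 effector also called granuphilin, led them at 286 TPM, with 281 ± 15.3 in WT mice and 291 ± 25.2 in mice labelled Dnmt3a+/- (SD, n = 4 each). Unc13d (Munc13-4), which primes dense granules for release through Rab27, was at 53.9 ± 13.8 and 50.3 ± 11.5 TPM (SD, n = 4 each).

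The prenylation and GDP dissociation inhibitor genes ran from Gdi2 at 256 TPM to Rabggta, the alpha subunit of the geranylgeranyl transferase, at 0 to 4 counts per library. Chm, the escort protein that presents Rabs to that enzyme, averaged 0.813 TPM. Of these 7 genes 6 were tested, with 4 positive and 2 negative fold changes, and all overlapped. Among the 7 listed Rab-like genes found in the data 3 were tested. Rabl2, of ciliary transport, had an unadjusted p of 0.043 by edgeR, which with a higher value put it among 1.73% of all genes. Its log2 fold change was 0.52 (SE 0.23, edgeR adjusted p = 0.986), from 17 to 47 counts per library. Its groups were apart in CPM and overlapped in TPM.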

How the data were processed

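Platelet RNA of 8 mice, 4 WT and 4 labelled Dnmt3a+/-, was sequenced as stranded polyadenylated libraries, per the labels' protocols. The submitters' processing notes list STAR, cutadapt, RSEM and DESeq2, and the build mm10, without roles or versions. The sources used here name neither an annotation release nor the strand setting of counting. The authors deposited estimated counts, held as whole numbers, so that rounding changed nothing. They also deposited TPM, which sums to 1000000 per library, to within rounding. How reads shared by near-identical genes were divided affects paralogs. With no strand setting known, whether the counting told apart reads of overlapping genes on opposite strands is not known.

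Counts were tested with edgeR 4.0.16 (R 4.3.3): glmQLFit and glmQLFTest on group alone, TMM factors, low counts removed by filterByExpr (at least 10 counts, total of at least 15), Benjamini-Hochberg adjustment over 7362 genes and a threshold of 0.05. The script was tested on simulated data with the same threshold. It recovered 8.7% of 46 genes changed 1.5-fold, 53.1% of 98 changed 2-fold and 91.5% of 47 changed 4-fold, with 3 false calls. DESeq2 1.42.0, limma 3.58.1 on log2(TPM + 1) and log2(TPM + 0.1), other factors and filters, a replicate block, each library left out and a GC correction were alternatives. Each library counted as 1 replicate because the labels call them biological replicates. Every pair differed beyond sampling noise, the chi-square per degree of freedom being at least 10.3. That check can find copied libraries and cannot show that the mice were separate. Coordinates and lengths are from GENCODE M21 (GRCm38). A total of 86 missing symbols were looked up by identifier.

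Values were printed by library, or as a range of counts where these were low, for the 12 members with the highest mean TPM, members with an unadjusted p under 0.05 and a list of 16 members from platelet or granule biology. Regulators were named by the highest TPM and the smallest p, with Rabggta, Gdi2, Chm, Unc13d, Sytl4, Hps1 and Hps4 as levels. The members and lists were chosen with earlier results of these data known. No protein sequence was used here.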

Additional observations from a re-analysis of the deposited data

Results flagged for a closer look

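Each of 50 groups of 4 libraries was checked for a library far from the other 3, with gaps and ranges taken in log2 CPM. Chance alone gives such a flag in about 1 in 20 groups. There were 2. Rab8a in WT replicate 3 was at 6.84 CPM, with the gap to the next library taking 0.951 of the whole range of the group. Rab13 in WT replicate 1 was at 23.4 CPM, with a gap of 0.834 of the range. Both gaps exceeded Dixon's critical value for groups of 4.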

How the results depend on the processing

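No Rab member passed an adjusted p of 0.05 in any setting. Over all genes, 250 of 18462 passed with no filter on low counts and 15 of 18438 by DESeq2. When each library was left out in turn 0 to 135 passed, with 135 of 7718 without WT replicate 1 and 1 of 7713 without replicate 2 labelled Dnmt3a+/-. Members higher at an unadjusted p under 0.05 numbered 2 with the replicate block and 1 to 2 with a library left out. Members lower numbered 1 with no filter (Rab39), 1 at a mean CPM of at least 5 (Rab36) and 0 to 1 with a library left out. Rab31 and Rab32 had no value at that filter. Fold changes near 0 changed sign. With a library left out they ran from -0.0066 to 0.194 for Rab11a (negative without WT replicate 1), -0.037 to 0.114 for Rab6a, -0.0012 to 0.226 for Rab27b, -0.076 to 0.0053 for Rab7, -0.051 to 0.0065 for Rab11b, -0.154 to 0.0195 for Rab5c, -0.114 to 0.216 for Rab32, -0.083 to 0.152 for Rab8a, -0.081 to 0.113 for Rab6b and -0.103 to 0.039 for Rab14. Rab6a was at -0.017 after the GC correction, which was chosen after seeing the data. Rab7 was at 0.00057 with upper-quartile factors, 0.039 by limma on log2(TPM + 1) and 0.040 on log2(TPM + 0.1), and Rab6b at -0.0060 at a mean CPM of at least 5. For these sign changes the cause was not tested. The replicate numbers did not pair the libraries: same-numbered deviations correlated at 0.077, 0.113, 0.114 and -0.098. With the replicate block 0 genes passed, and the 2 members at an unadjusted p under 0.05 were Rab9 and Rab1a. Not every library correlated best with its own number. The members' median fold change ran from -0.033 to 0.038 with a library left out and was -0.0082 after the GC correction, with 17 positive and 18 negative. Rab10 ran from 0.042 to 0.194 with a library left out, and Rab37 from -0.248 to -0.088. Rab32 rests on at most 36 counts per library.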
